A study of Mus musculus with 10 samples.

Results

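The 10 genes described here, *Adgre1*, *Lyve1*, *Folr2*, *Cd163*, *Timd4*, *Fcna*, *Trem2*, *Vsig4*, *Cd209f*, and *Apoe*, are markers of tissue-resident macrophages. They were taken by name from the 55487 genes of the count tables, and all 10 were found. Bulk RNA sequencing was performed on 10 libraries from 10-wk-old female BALB/c mice in diestrus. The macrophage libraries were 2 WT (labeled 4 and 5) and 4 *Cebpb* ΔM (labeled 4 to 7), and the mammary epithelial cell (MEC) libraries were 2 WT and 2 *Cebpb* ΔM (labeled 1 and 3 in each group). *Cebpb* ΔM mice carry *Csf1r-iCre* and floxed *Cebpb* alleles, so that the transcription factor C/EBPβ is removed from cells in which the *Csf1r* promoter is active, and MECs of these mice are not themselves the target of the deletion. WT mice carry the same floxed alleles without Cre. Macrophages were taken from digested glands by positive selection for F4/80, the protein product of *Adgre1*. For MECs, epithelial organoids were separated by differential centrifugation, dissociated with trypsin, and purified by negative selection of lineage-marked (LIN) cells. Cell type and preparation therefore cannot be told apart here.

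Resident macrophages of the adult gland are seeded in part before birth, live in the stroma or along the ducts, and clear dying cells and debris. Stromal macrophages bear LYVE-1, a receptor for the matrix sugar hyaluronan, together with the folate receptor FOLR2 and the hemoglobin scavenger receptor CD163. TIM-4 binds phosphatidylserine on dying cells, TREM2 senses lipids and signals through the adaptor TYROBP, VSIG4 is a receptor for complement fragments, ficolin A (*Fcna*) and CD209f are lectins that bind sugars, and apolipoprotein E carries lipids out of cells. Several of these genes are not restricted to macrophages. *Lyve1* marks lymphatic endothelium, and *Apoe* is made by many cell types.

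The total count was 25310926 to 27008166 in the MEC libraries and 16935000 to 20174722 in the macrophage libraries. *Cebpb* did not separate the genotypes in macrophages, with 13 and 15 counts in WT 4 and 5 and 16, 13, 5, and 4 counts in the libraries labeled *Cebpb* ΔM 4 to 7. In CPM (counts divided by the library total and scaled to a common total of 1e6), *Cebpb* was at 0.705 and 0.744 in WT and at 0.877 and 0.657 in the libraries labeled *Cebpb* ΔM 4 and 5. With counts this low in WT as well, *Cebpb* cannot show whether the deletion took place. *Tmem189* overlaps it on the opposite strand. In MECs, *Cebpb* was at 0.94 and 1.08 CPM in WT and at 2.55 and 1.66 CPM in *Cebpb* ΔM. The paper reports loss of C/EBPβ by immunoblot and qRT-PCR in macrophages grown from bone marrow, and by co-staining in the gland. Genotype names below are those of the labels. Epithelial transcripts were also present in the macrophage libraries. The summed level of 16 epithelial genes was 10880 and 10330 CPM in WT macrophages and 5374 to 8587 CPM in *Cebpb* ΔM macrophages, compared with 28717 to 36345 CPM in MECs. The mean log2 CPM over the 15 of these genes that were tested ordered the libraries otherwise, at 6.75 and 6.36 in WT 4 and 5 and at 8.08, 7.21, 6.33, and 5.66 in *Cebpb* ΔM 4 to 7. The milk protein gene *Csn2*, chosen after its values were seen, reached 257 CPM in *Cebpb* ΔM 4 and 17.4 CPM in *Cebpb* ΔM 5, and was at most 0.52 CPM in the other macrophage libraries.

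The genes lie apart from one another on GRCm38. *Adgre1* (chr17:57358691-57483527, plus strand) and *Trem2* (chr17:48346401-48354147, plus strand) share a chromosome, as do *Lyve1* (chr7:110850607-110863239), *Folr2* (chr7:101839988-101857194), and *Apoe* (chr7:19696109-19699188), all on the minus strand. *Cd163* is at chr6:124304656-124330527 (plus), *Timd4* at chr11:46810800-46844332 (plus), *Fcna* at chr2:25624666-25628030 (minus), *Vsig4* at chrX:96247203-96293438 (minus), and *Cd209f* at chr8:4102787-4105835 (minus). Annotated genes on the opposite strand overlap *Fcna* (*Fcnaos*) and *Folr2* (*Gm10602* and *Gm45319*). Counting was set to reverse-stranded, but whether the library kit keeps strand is not given in the sources used here, so reads of these overlapping pairs may not be separated. *Cd209f* belongs to a family of similar gene copies, and its counts are uncertain to the extent that reads could be shared with its relatives.

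Promoter sequences of RefSeq (GRCm38.p6), from 250 bases before to 50 bases after a transcription start, were available for 8 of the 10 genes, 11 promoters in all. *Adgre1* and *Lyve1* had no entry. The letters GAGGAAG (the type bound by PU.1, the master factor of macrophages), TTGCNNAA (C/EBP type), and TGCTGAC (MAF half-site, bound by factors of resident macrophages) were searched on both strands. GAGGAAG was in 2 of the 11 promoters and in 13.6% of 32851 RefSeq promoters of the same length. TTGCNNAA was in 1 of 11 and in 10.8% of all, and TGCTGAC in 2 of 11 and in 4.67% of all. The 3 promoters with such letters are shown first, followed by those of *Cd163* and *Cd209f*, the members whose levels moved most closely together, which hold none of the 3 motifs. Sequences run 5′ to 3′ on the strand of the gene, with motif letters in capitals. They are *Fcna* (chr2:25627925-25628224, minus), *Timd4* (chr11:46810549-46810848, plus), *Trem2* (chr17:48346151-48346450, plus), *Cd163* (chr6:124304401-124304700, plus), and *Cd209f* (chr8:4105715-4106014, minus).
Fcna: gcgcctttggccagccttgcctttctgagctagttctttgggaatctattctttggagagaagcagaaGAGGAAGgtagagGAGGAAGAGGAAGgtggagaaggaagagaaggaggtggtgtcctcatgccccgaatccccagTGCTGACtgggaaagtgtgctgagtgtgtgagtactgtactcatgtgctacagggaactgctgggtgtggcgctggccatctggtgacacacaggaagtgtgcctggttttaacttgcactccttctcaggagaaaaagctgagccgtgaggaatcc
Timd4: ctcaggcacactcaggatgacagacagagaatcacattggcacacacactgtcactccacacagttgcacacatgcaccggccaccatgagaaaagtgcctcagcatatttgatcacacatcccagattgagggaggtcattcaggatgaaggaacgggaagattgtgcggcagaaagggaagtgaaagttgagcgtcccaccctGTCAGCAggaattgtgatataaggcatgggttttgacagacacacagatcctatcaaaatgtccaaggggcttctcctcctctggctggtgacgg
Trem2: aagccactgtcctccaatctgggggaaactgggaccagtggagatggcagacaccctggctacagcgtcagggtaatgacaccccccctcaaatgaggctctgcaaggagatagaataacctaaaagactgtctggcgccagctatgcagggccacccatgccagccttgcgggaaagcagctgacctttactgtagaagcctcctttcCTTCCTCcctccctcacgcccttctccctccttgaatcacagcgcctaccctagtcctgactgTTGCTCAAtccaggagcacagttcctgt
Cd163: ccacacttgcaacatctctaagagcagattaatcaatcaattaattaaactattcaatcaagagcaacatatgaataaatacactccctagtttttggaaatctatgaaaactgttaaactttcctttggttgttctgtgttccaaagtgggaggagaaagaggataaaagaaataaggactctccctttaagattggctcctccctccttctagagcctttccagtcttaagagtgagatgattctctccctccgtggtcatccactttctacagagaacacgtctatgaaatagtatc
Cd209f: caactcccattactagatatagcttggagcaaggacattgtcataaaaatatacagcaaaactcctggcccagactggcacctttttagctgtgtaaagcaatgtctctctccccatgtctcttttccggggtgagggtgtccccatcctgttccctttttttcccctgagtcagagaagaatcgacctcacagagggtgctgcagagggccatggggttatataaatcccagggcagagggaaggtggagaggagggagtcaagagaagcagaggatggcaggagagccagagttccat
In *Fcna* the 3 PU.1-type matches begin 182, 169, and 163 bases before the start, the last pair sharing a base, and the MAF half-site begins 107 bases before it. In *Trem2* a PU.1-type match on the opposite strand begins 41 bases before the start, and the C/EBP-type match, TTGCTCAA, begins at base 23 of the transcript. In *Timd4* the MAF half-site, on the opposite strand, begins 45 bases before the start. These matches are a description of letters and do not show binding.

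The 10 genes differed widely in level within WT macrophages. On a scale that corrects for gene length, CPM per kilobase of exon (RPKM), *Apoe* was highest at 3080 ± 491 RPKM (SD, n = 2). *Folr2* (281 ± 44.6 RPKM), *Fcna* (226 ± 59.0 RPKM), and *Cd209f* (183 ± 82.5 RPKM) came next, and neighbors in this order overlapped between libraries. *Lyve1* (83.2 ± 55.6 RPKM), *Adgre1* (62.4 ± 5.21 RPKM), and *Cd163* (60.8 ± 31.0 RPKM) formed another overlapping group. *Timd4* (19.2 ± 0.63 RPKM), *Trem2* (10.9 ± 0.43 RPKM), and *Vsig4* (1.83 ± 0.77 RPKM) were lowest, each apart from its neighbors. The order in *Cebpb* ΔM macrophages (n = 4) was the same except that *Cd163* (108 ± 29.9 RPKM) and *Lyve1* (86.4 ± 27.9 RPKM) changed places, with overlapping libraries. *Vsig4*, which marks resident macrophages of the liver and body cavities, had only 34 to 71 counts in any macrophage library.

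The first comparison asked how far these genes distinguish F4/80-selected macrophages from MECs. *Apoe*, *Folr2*, *Lyve1*, and *Cd163*, which passed the filter on low counts also among the MEC libraries alone, were higher in macrophages in each genotype, with *P* values from the quasi-likelihood (QL) test of edgeR adjusted by the Benjamini–Hochberg (BH) procedure. The other 6 genes failed that filter in MECs and entered the fit through the macrophage libraries in which they are high, so their calls add nothing and their values are given as a description. For each of the 10 genes every macrophage library was above every MEC library. The share of all genes tested with such a separation was not counted, so this is a description only. The shares that follow are of QL calls. Of all 18321 genes tested, 14.8% were called higher in WT macrophages than in WT MECs and 19% in the *Cebpb* ΔM comparison. *Adgre1* encodes the protein used to select the cells, so its difference is not a finding. The extent of restriction to macrophages differed greatly from gene to gene.

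*Timd4* and *Vsig4* had 0 counts in all 4 MEC libraries. Against the floor of 3 counts per library, mean *Timd4* CPM was at least 366-fold higher in WT macrophages than in WT MECs and at least 633-fold higher in the *Cebpb* ΔM pair. The bounds for *Vsig4* were only 23.7-fold and 20.9-fold at its macrophage level of 1.78 to 3.52 CPM. *Cd209f* had 2, 0, 2, and 0 counts in the MEC libraries and 4551 to 14145 in macrophages, a ratio in WT of 9682 with a 95% exact interval for counting error of 2680 to 79953. *Trem2* had 1 count in the WT MEC libraries together, with a ratio of 2834 (508 to 111980). These intervals cover counting error only.

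*Cd163* was present at 0.95 to 1.69 CPM in MECs and at 212 to 772 CPM in macrophages, a log2 difference of 7.75 ± 0.57 in WT (SE; QL adjusted *P* = 4.5e-06). *Lyve1* was at 1.47 to 5.02 CPM in MECs and 128 to 358 CPM in macrophages, a log2 difference of 6.93 ± 0.67 in WT (adjusted *P* = 3.3e-05). *Prox1*, a defining factor of lymphatic endothelium, was at 4.7 to 11.5 CPM in MECs and 9.4 to 32.9 CPM in macrophages. It was highest in the library with the lowest *Lyve1*, WT 4. The summed level of the 6 lymphatic genes listed was 98.8 and 125 CPM in WT macrophages, 68.7 to 171 CPM in *Cebpb* ΔM macrophages, and 179 to 202 CPM in MECs. *Ccl21a*, a lymphatic chemokine, was at 0 in every library. Reads under a mapping quality of 10 were not counted, so this 0 cannot show that *Ccl21a* was not expressed. The part of lymphatic cells in the *Lyve1* level was not tested.

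*Folr2* and *Apoe* were the least restricted. *Folr2* was at 13.9 to 26.1 CPM in MECs and at 386 to 914 CPM in macrophages. Mean *Folr2* CPM in WT MECs was 4.89% of that in WT macrophages, compared with 0.912% for *Csf1r*, the receptor that defines the lineage, and 1.75% for *Cd68*. In *Cebpb* ΔM the gap was narrower, at 2.17% for *Folr2*, 1.23% for *Csf1r*, and 1.06% for *Cd68*. *Apoe* was abundant in MECs at 1014 to 1630 CPM, with a WT mean that was 18.6% of the WT macrophage mean, and its log2 difference was 2.25 ± 0.29 in WT (adjusted *P* = 0.00024) and 2.61 ± 0.27 in *Cebpb* ΔM (adjusted *P* = 3.7e-05).

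**Figure D1:**
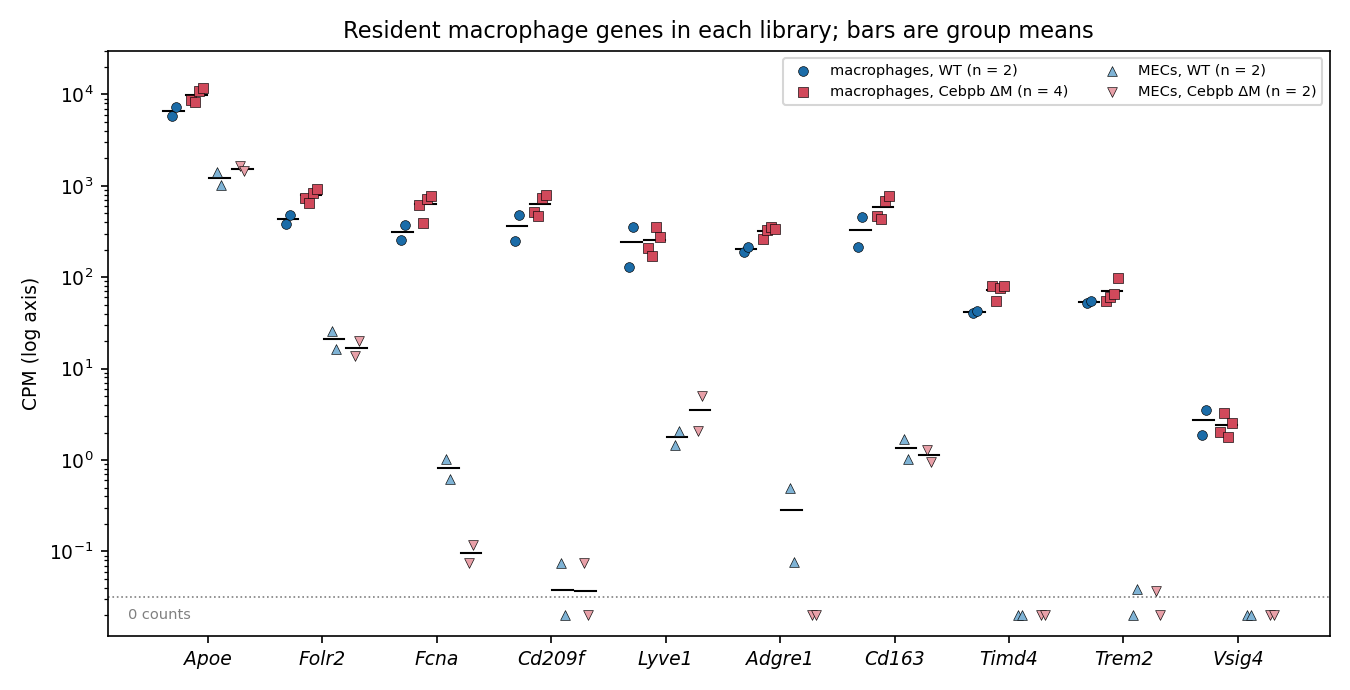
CPM of each gene (log axis) in the 10 libraries, with group means as horizontal bars and libraries with 0 counts drawn under the dotted line. Every macrophage library is above every MEC library for each gene, a separation that was not counted over all genes. The gap is narrowest for *Apoe*, at 5842 CPM in the lowest macrophage library and 1630 CPM in the highest MEC library.

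The second comparison asked whether these genes differ between *Cebpb* ΔM and WT macrophages. Of the 10, 9 had a positive log2 fold change, compared with 50.4% of all genes tested. Under the scaling to pan-macrophage counts given below, 7 were positive. None of the 10 was called among 17772 genes tested by the QL test, which called 0 genes at all (0%). The likelihood ratio test called 138 genes, of which 111 were higher, and none of the 10. DESeq2 called 201 genes, among them *Folr2* and *Timd4*. With no adjustment, 6 of the 10 were higher in *Cebpb* ΔM at a QL *P* under 0.05, compared with 4.96% of all genes tested (1534 genes passed in either direction). In 6 of the 10 genes every *Cebpb* ΔM library had more CPM than both WT libraries, compared with 8.47% of all genes. That count was 5 of 10 on CPM scaled by trimmed mean of M-values (TMM), against 9.67% of all genes, with *Trem2* as the gene that overlapped. WT 4 was the lowest macrophage library for 9 genes, and *Cebpb* ΔM 7 was the highest for 7. The shares of all genes tested with these extremes were not counted, so this is a description only. The pan-macrophage sum given below was also lowest in WT 4 (10096 CPM) and highest in *Cebpb* ΔM 7 (17721 CPM). Without WT 4 and *Cebpb* ΔM 4, an alternative added after the data were seen, *Lyve1* (−0.35) and *Vsig4* (−0.43) were negative, and the others had log2 fold changes from 0.51 to 0.85.

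Among the receptors for folate, sugars, and hemoglobin, *Folr2* was at 386 and 484 CPM in WT 4 and 5 and at 743, 650, 832, and 914 CPM in *Cebpb* ΔM 4 to 7. The groups did not overlap. The log2 fold change was 0.89 ± 0.22 (SE), with an unadjusted *P* of 0.0031 and an adjusted *P* of 0.452 by the QL test, 0.0604 by the likelihood ratio test, and 0.0149 by DESeq2. Over all settings the adjusted *P* ranged up to 0.797. The antisense gene *Gm10602*, which overlaps *Folr2*, had the most similar pattern of all genes tested.

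*Fcna*, a soluble pattern-recognition lectin of the complement pathway, had the largest log2 fold change of the 10. It was at 253 and 368 CPM in WT and at 620, 396, 721, and 770 CPM in *Cebpb* ΔM. *Cebpb* ΔM 5 lay close above WT 5, and the other *Cebpb* ΔM libraries were well above both. The log2 fold change was 1.06 ± 0.32, with an unadjusted *P* of 0.0099 and an adjusted *P* of 0.495 by the QL test and 0.0505 by DESeq2, with a range over all settings from 0.0505 to 0.797.

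*Cd163* and *Cd209f* showed a different arrangement of libraries. *Cd163* was at 212 and 452 CPM in WT and 467, 438, 682, and 772 CPM in *Cebpb* ΔM. *Cd209f* was at 247 and 479 CPM in WT and 522, 466, 741, and 795 CPM in *Cebpb* ΔM. In both genes WT 5 lay at the level of *Cebpb* ΔM 4 and 5, and the groups overlapped. The log2 fold changes were 0.87 ± 0.38 for *Cd163* (adjusted *P* = 0.58) and 0.84 ± 0.35 for *Cd209f* (adjusted *P* = 0.565), and they rested on which WT library was used. Without WT 4 they were 0.41 and 0.42, and without WT 5 they were 1.56 and 1.44.

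*Lyve1* gave no direction. It was at 128 and 358 CPM in WT 4 and 5 and at 209, 170, 356, and 274 CPM in *Cebpb* ΔM, so the WT libraries spanned all 4 of the others. The log2 fold change was 0.09 ± 0.45 (adjusted *P* = 0.976), and it was −0.48 without WT 4 and 1.06 without WT 5.

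Among the receptors for dying cells and lipid, *Timd4* was at 40.8 and 42.7 CPM in WT and 79.4, 54.8, 75.8, and 80.8 CPM in *Cebpb* ΔM. The WT libraries were close together, and each *Cebpb* ΔM library was above them. The log2 fold change was 0.84 ± 0.22, with an unadjusted *P* of 0.0044 and an adjusted *P* of 0.452 by the QL test, 0.0893 by the likelihood ratio test, and 0.0417 by DESeq2, with 0.797 as the highest over all settings.

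*Trem2* was at 52.3 and 55.3 CPM in WT and 55.4, 61.3, 66.1, and 98.3 CPM in *Cebpb* ΔM. *Cebpb* ΔM 4 lay at the level of WT 5, and *Cebpb* ΔM 7 stood above the rest. The log2 fold change was 0.43 ± 0.27 (adjusted *P* = 0.703). *Vsig4* was at 1.90 and 3.52 CPM in WT and 2.03, 3.23, 1.78, and 2.54 CPM in *Cebpb* ΔM, which overlapped, with a log2 fold change of −0.15 ± 0.51 (adjusted *P* = 0.97). It was 0.40 without WT 5.

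*Apoe* was at 5842 and 7326 CPM in WT and 8597, 8325, 10919, and 11688 CPM in *Cebpb* ΔM, with no overlap. Its log2 fold change was 0.63 ± 0.22 (adjusted *P* = 0.521). *Adgre1*, the gene of the selecting antigen, was at 190 and 214 CPM in WT and 265, 328, 354, and 339 CPM in *Cebpb* ΔM, also with no overlap. Its log2 fold change was 0.72 ± 0.20 (unadjusted *P* = 0.0067, adjusted *P* = 0.48).

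**Figure D2:**
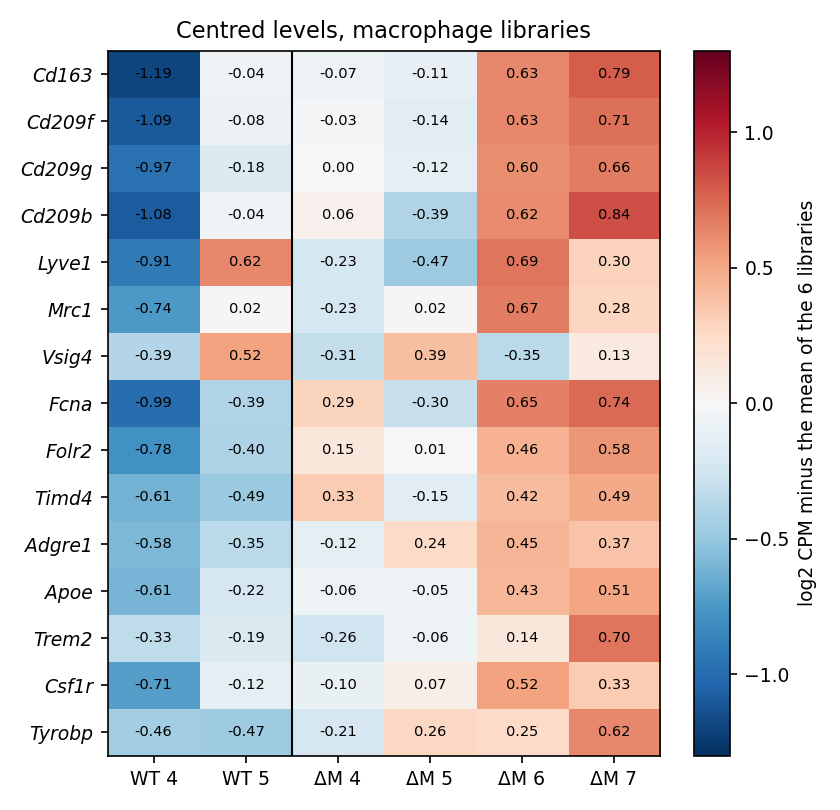
TMM-scaled log2 CPM of the 10 genes and 5 related genes in each macrophage library, as the difference from the mean of the 6 libraries (color scale in log2 units). WT 4 is lowest for *Cd163* (−1.19) and *Cd209f* (−1.09), whereas WT 5 is above the mean for *Lyve1* (0.62) and *Vsig4* (0.52) and below it for *Timd4* (−0.49).

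The WT libraries themselves separated the genes. From WT 4 to WT 5 the CPM ratio was 2.79 for *Lyve1*, 2.13 for *Cd163*, 1.94 for *Cd209f*, and 1.85 for *Vsig4*. It was 1.45 for *Fcna*, 1.25 for *Folr2* and *Apoe*, 1.13 for *Adgre1*, 1.06 for *Trem2*, and 1.05 for *Timd4*. The summed level of 16 pan-macrophage genes differed by a ratio of 1.08 between the same libraries, and the median gene tested by 0.96. For *Lyve1*, *Cd163*, *Cd209f*, and *Vsig4* the ratio between the WT libraries exceeded the fitted fold between genotypes, which was 1.07, 1.83, 1.79, and 0.903.

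Genes shared by all macrophages also had more CPM in the *Cebpb* ΔM libraries. The summed level of the pan-macrophage list was 10096 and 10932 CPM in WT and 13178, 15280, 15549, and 17721 CPM in *Cebpb* ΔM, with no overlap. All 16 of its genes had a positive log2 fold change, 11 with an unadjusted *P* under 0.05 and none called by the QL test, and the median was 0.65. The median of the 10 resident genes was 0.78 and that of all genes tested was 0.004. The epithelial sum given above was larger in both WT libraries than in each *Cebpb* ΔM library, but the genes of that list did not share a direction. The luminal keratins *Krt8* (−0.89), *Krt18* (−0.82), and *Krt19* (−0.79) had negative log2 fold changes. The basal genes *Krt14* (1.53), *Krt5* (1.297), and *Trp63* (0.79), the progenitor factor *Elf5* (0.60), and the milk protein gene *Csn1s1* (4.83) had positive ones, and none of these 8 genes, chosen after their values were seen, was called by the QL test. Among the lists of other cell types, summed levels of dendritic genes (201 and 293 CPM in WT, 330 to 600 CPM in *Cebpb* ΔM) and of lymphocyte genes (14.2 and 12.6 CPM in WT, 17.3 to 35.4 CPM in *Cebpb* ΔM) were also higher without overlap. Among the other macrophage lists, so were those of ductal macrophage genes (10238 and 12098 CPM in WT, 13488 to 21846 CPM in *Cebpb* ΔM), of lipid-associated genes (10723 and 10604 CPM in WT, 10946 to 15301 CPM in *Cebpb* ΔM), and of the partners and relatives of the 10 genes (2954 and 3676 CPM in WT, 3823 to 5213 CPM in *Cebpb* ΔM). The sum of stromal resident macrophage genes overlapped, at 7374 and 10692.5 CPM in WT and 10616 to 15290 CPM in *Cebpb* ΔM. The part of other cell types in the genotype differences of the 10 genes was not tested. In bulk RNA a change in the number of cells of a type and a change in RNA per cell cannot be told apart.

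**Figure D3:**
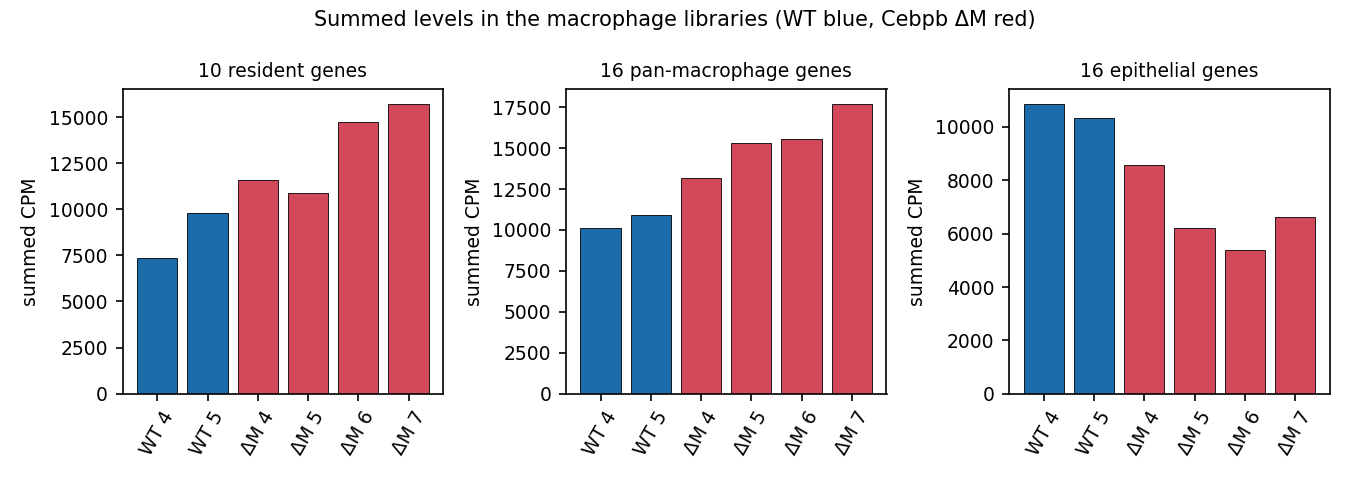
Summed CPM of the 10 resident genes, of 16 pan-macrophage genes, and of 16 epithelial genes in each macrophage library (bars from 0). All 4 *Cebpb* ΔM libraries are above both WT libraries in the first and second panels and below them in the third, whose order is that of summed CPM and not of the mean log2 CPM of the same list (8.08 in *Cebpb* ΔM 4 and 6.75 in WT 4).

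When levels were instead expressed against the pan-macrophage sum of the same library, the genotypes overlapped for all 10 genes, and 1.67% of all genes tested were higher in *Cebpb* ΔM without overlap. Per 100 pan-macrophage counts, *Apoe* was at 57.9 and 67.0 in WT and 65.2, 54.5, 70.2, and 65.9 in *Cebpb* ΔM. *Adgre1* was at 1.88 and 1.96 in WT and 2.01, 2.15, 2.28, and 1.91 in *Cebpb* ΔM. *Folr2* was at 3.83 and 4.43 in WT and 5.64, 4.25, 5.35, and 5.16 in *Cebpb* ΔM. *Fcna* was at 2.51 and 3.37 in WT and 4.70, 2.59, 4.63, and 4.35 in *Cebpb* ΔM. For *Folr2* and *Fcna*, *Cebpb* ΔM 5 fell between the WT libraries, and the other 3 were above them. The ratio between the highest and lowest macrophage library became smaller for 8 of the 10 genes on this scale, from 1.86 to 1.21 for *Adgre1* and from 3.04 to 1.87 for *Fcna*, and it became larger for *Lyve1* (2.79 to 2.94) and *Vsig4* (1.98 to 2.81). How often this ratio became smaller among all genes tested was not counted.

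In a QL fit with library sizes set to the pan-macrophage counts, the median of all genes was shifted to −0.57, that of the resident genes was 0.19, and that of the pan-macrophage list was 0.07. None of the 10 had an unadjusted *P* under 0.05, compared with 5419 of 17772 genes tested, in either direction. A positive value was found for 7 of the 10, compared with 2278 of all genes, whose median was shifted by the scaling. *Fcna* was at 0.47 ± 0.27, *Folr2* at 0.31 ± 0.19, *Timd4* at 0.26 ± 0.26, and *Apoe* at 0.04 ± 0.14. *Trem2* was at −0.19 ± 0.24, *Lyve1* at −0.48 ± 0.37, and *Vsig4* at −0.71 ± 0.55. With *Csf1r* counts as the library size, an alternative added after the data were seen, the median of the 10 was 0.14. Per 100 *Csf1r* counts, *Folr2* was at 48.4 and 41.8 in WT and 60.3, 48.6, 48.6, and 60.5 in *Cebpb* ΔM, higher without overlap, as were 1.44% of all genes tested, and the other 9 genes overlapped. The mean log2 CPM of the epithelial list, which is highest in *Cebpb* ΔM 4 and 5 and does not follow the epithelial sum, was also used as a covariate under TMM. In that fit the median of the 10 was 0.82 and none was called. An unadjusted *P* under 0.05 was found for 8 of the 10, compared with 1897 of all 17772 genes tested, in either direction.

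**Figure D4:**
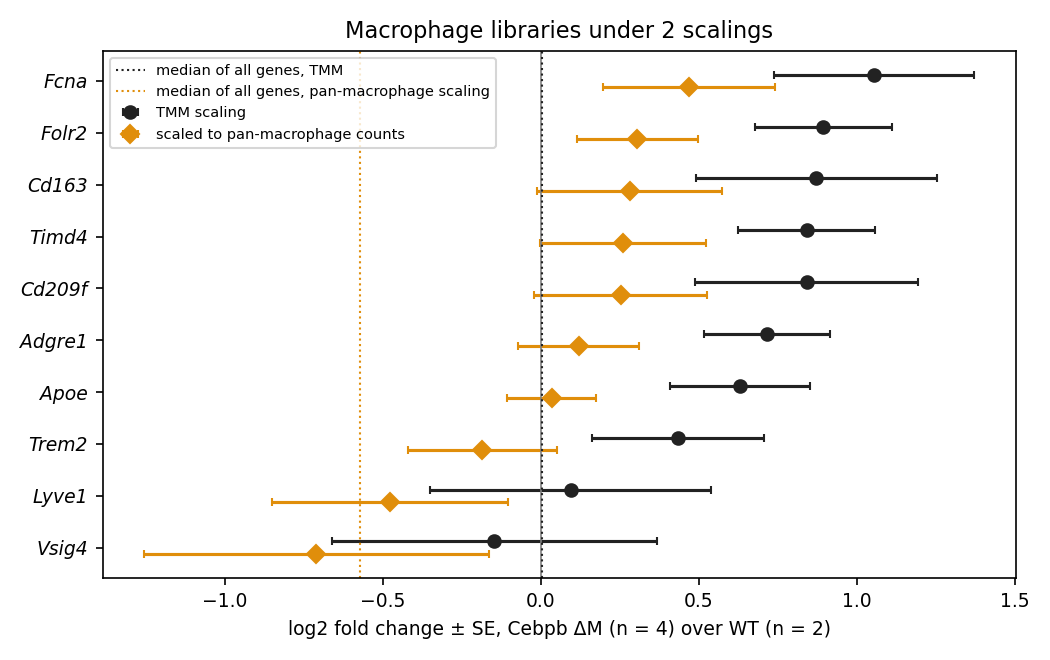
Log2 fold change (± SE) of each gene in *Cebpb* ΔM over WT macrophages under TMM scaling and under scaling to pan-macrophage counts, with the median of all genes as dotted lines. The second scaling changes only the library sizes, so the move of every gene to the left follows from the scaling itself. *Fcna* goes from 1.06 to 0.47, *Apoe* from 0.63 to 0.04, and the median gene from 0.004 to −0.57.

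Partners and relatives of these genes were examined from a list of 40, of which 33 were tested in macrophages and none was called by the QL test. Of these, 24 had a positive log2 fold change under TMM (median 0.35) and 12 under pan-macrophage scaling (−0.21). The *Cd209* family on chromosome 8 was at 0 to 0.158 CPM in MECs. In WT 4 and 5, *Cd209g* was at 294 and 488 CPM, *Cd209b* at 166 and 327 CPM, *Cd209a* at 130 and 198 CPM, and *Cd209d* at 81.5 and 112 CPM. *Cd209c* and *Cd209e* were between 9.2 and 15.5 CPM in the same libraries. All 6 had positive log2 fold changes in *Cebpb* ΔM, from 0.44 ± 0.33 for *Cd209e* to 0.99 ± 0.33 for *Cd209a*, with adjusted *P* from 0.48 to 0.771, and under pan-macrophage scaling *Cd209e* was at −0.18 and the others at 0.23 to 0.38. *Cd209a* is also expressed by dendritic cells. *Cd209* relatives are similar in sequence, so their values may not be independent of *Cd209f*.

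*Tyrobp*, the adaptor of TREM2, was at 99.2 and 94.6 CPM in WT and 118 to 193 CPM in *Cebpb* ΔM, a log2 fold change of 0.72 ± 0.23 (adjusted *P* = 0.515). *Hmox1*, which degrades heme taken up through CD163, was at 285 and 395 CPM in WT and 400 to 577 CPM in *Cebpb* ΔM (0.54 ± 0.24, adjusted *P* = 0.582). *Abca1* and *Abcg1*, which load cellular cholesterol onto lipoproteins, had log2 fold changes of 0.39 ± 0.21 and 0.01 ± 0.24, and *Apoc1* was at most 6.58 CPM in macrophages and at most 20.7 CPM in MECs. *Masp1*, a protease that works with ficolins, was at 7.8 to 20.1 CPM in macrophages with a log2 fold change of −0.05 ± 0.37. *Stab1*, a scavenger receptor of the same stromal macrophages as *Lyve1*, was at 249 and 311 CPM in WT and 212 to 353 CPM in *Cebpb* ΔM (0.03 ± 0.25). *Mrc1*, the mannose receptor, was at 525 and 853 CPM in WT and 754 to 1269 CPM in *Cebpb* ΔM (0.53 ± 0.30). Under pan-macrophage scaling *Tyrobp* was at 0.11, and *Hmox1* (−0.04), *Mrc1* (−0.05), *Abca1* (−0.19), *Stab1* (−0.56), and *Abcg1* (−0.61) changed sign, beside a median of −0.57 over all genes.

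Other macrophage lists were counted in the same fit. Of 22 tested genes of stromal resident macrophages, 20 had a positive value, with a median log2 fold change of 0.61 under TMM and 0.02 under pan-macrophage scaling. Of 18 genes of MHC class II–high ductal macrophages 16 were positive, with medians of 0.73 and 0.12, and of 16 genes of lipid-associated macrophages 12 were positive, with medians of 0.29 and −0.31. No gene of these lists, or of those that follow, was called by the QL test. Genes of monocytes and neutrophils (9 tested, 4 positive, median −0.02) and of blood endothelium (7 tested, 5 positive, median 0.02) lay near the median of all genes. Of 15 epithelial genes tested 9 were negative (median −0.20). All 8 tested genes of fibroblasts and adipocytes were negative (median −0.27), as were 3 of 5 lymphatic genes (−0.43), whereas all 7 lymphocyte genes (1.72) and 8 of 10 dendritic genes (0.41) were positive. Of 13 genes induced by tissue dissociation 8 were positive, with a median of 0.09. The neutrophil gene *Ly6g* had 0 CPM in every library.

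The genes with the most similar patterns over the 6 macrophage libraries were identified by the root mean square (RMS) difference of centered log2 CPM. *Cd163* and *Cd209f* were each other's nearest gene among all tested (RMS 0.0568), and *Cd209g* was second for both (0.122 and 0.0702). Next came *Cd209b* for *Cd163* (0.135) and *Tnfaip8l2* for *Cd209f* (0.098). The nearest gene to *Fcna* was its overlapping antisense gene *Fcnaos* (0.0537), and that to *Folr2* was *Gm10602* (0.0157). The part of shared reads in these similarities was not tested. *Cd37*, a tetraspanin of leukocytes, was second for both *Folr2* (0.0614) and *Timd4* (0.0804). *Apoe* was nearest to *Ptpro* (0.0597), *Pld4* (0.0759), and *Ctsa* (0.0762), and *Adgre1* to *Zfp90* (0.0257), *Gypc* (0.0393), and *1110046J04Rik* (0.0487). The closest other member to *Lyve1* was *Cd209f* at 0.377, at rank 511, and to *Vsig4* it was *Trem2* at 0.462. These values rest on 6 libraries, and genes were not weighted for count noise.

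A further comparison asked whether the traces of these genes in MEC libraries differ with genotype. Only *Apoe*, *Folr2*, *Lyve1*, and *Cd163* passed the filter on low counts, and none was called by the QL test, which called 8 of 15689 genes (0.051%). *Apoe* was at 1433 and 1014 CPM in WT and 1630 and 1436 CPM in *Cebpb* ΔM (log2 fold change 0.31 ± 0.26). *Folr2* was at 26.1 and 16.5 CPM in WT and 13.9 and 20.1 CPM in *Cebpb* ΔM (−0.35 ± 0.29), and *Lyve1* was at 1.47 and 2.08 CPM in WT and 2.07 and 5.02 CPM in *Cebpb* ΔM (0.96 ± 0.47). For *Apoe* the lower *Cebpb* ΔM library was just above the higher WT library, and the genotypes overlapped for *Folr2* and *Lyve1*.

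*Fcna* and *Adgre1* were near the floor in MECs. *Fcna* had 27 and 16 counts in WT and 2 and 3 counts in *Cebpb* ΔM, a ratio of 8.55 with a 95% exact interval for counting error of 3.40 to 27.7. *Adgre1* had 13 and 2 counts in WT and 0 in both *Cebpb* ΔM libraries. The interaction, which tests the difference between the genotype effects of the cell types, was not called for any of the 10 genes by the QL test (0% of 18321 genes, with 951 at an unadjusted *P* under 0.05). The likelihood ratio test called 53 genes and DESeq2 27, both with *Fcna* and *Adgre1* among them. Neither gene passed the filter among the MEC libraries, so these calls rest on the few MEC counts given here, of which 13 of the 15 for *Adgre1* came from 1 library, and no difference between the cell types is read from them. In the same MEC libraries *Csf1r* was at 9.51 and 8.31 CPM in WT and 15.7 and 19.9 CPM in *Cebpb* ΔM. Of 6 pan-macrophage genes tested in MECs, only *Csf1r* was higher in *Cebpb* ΔM and 5 were lower (median log2 fold change −0.20). The summed level of the full list overlapped, at 298 and 367 CPM in WT and 373 and 231 CPM in *Cebpb* ΔM.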

How the data were processed

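RNA was sequenced as paired reads by the authors from low-input libraries. The authors trimmed the reads with Trimmomatic, mapped them to GRCm38 with HISAT2, and counted read pairs per gene of Ensembl release 100 with featureCounts (version 1.6.2, minimum mapping quality 10, both ends mapped, reverse-stranded setting). The deposited values are raw counts per gene and library, and every sample column was used. Genes were named with GENCODE M21. The total counts per library are given in the report, and a gene with 3 counts or fewer in a library was taken to be at the floor.

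From the counts, genes of at least 300 nt with more than 1 CPM in at least 2 fitted libraries were kept. Genotypes were compared within each cell type, and cell types and the interaction in a fit of all 10 libraries with 4 group means, by the quasi-likelihood (QL) test of edgeR (version 4.0.16; R version 4.3.3) with TMM scaling and BH adjustment over all genes tested at a threshold of 0.05. The test was run on simulated counts, with log2 changes larger than those fitted for the 10 genes between genotypes within a cell type. That check therefore does not show whether changes of the fitted size would be called. SE is the log2 fold change divided by the square root of the *F* statistic. CPM and RPKM are not TMM-scaled unless stated. The likelihood ratio test of edgeR, used in the paper, was run as an alternative, as were DESeq2 (version 1.42.0), RLE scaling, other filters, libraries left out, the replicate number as a block, scaling to macrophage genes, and an epithelial covariate. Where 1 library was left in a genotype, it was assumed to vary like the other group.

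The 10 genes, the marker lists, and the rule for naming genes were chosen with earlier results of these data known. The rule names the 10 genes, *Cebpb*, called genes of the lists, stated partners and *Cd209* relatives, and the 3 genes nearest in pattern to a member. Whether libraries of a group come from separate animals is not given by the labels, so *P*-values measure the spread between these libraries.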

Additional observations from a re-analysis of the deposited data

How the results depend on the processing

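*Apoe*, *Folr2*, *Lyve1*, and *Cd163* were called higher in macrophages than in MECs under every alternative run. The count of all genes called without 1 library was 2454 to 4845 in WT (lowest without WT MEC 3, and 2731 and 3040 without WT MEC 1 and WT macrophage 5) and 3496 to 6554 in *Cebpb* ΔM (lowest without MEC 1), against 4661 and 6171.

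In macrophages the QL count of 0 genes became 138 with the likelihood ratio test, 201 with DESeq2 (2 of the 10 genes, *Folr2* and *Timd4*), and 12 with the replicate block, with no member among the last. With the likelihood ratio test and pan-macrophage scaling, added after the data were seen, 1950 genes were called, of which 115 were higher, against 111 of 138 with TMM. *Lyve1* turned to −0.20 with the replicate block, −0.38 with only replicate numbers 4 and 5, −0.48 with pan-macrophage scaling in both edgeR tests, −0.46 with *Csf1r* scaling, and −0.35 without WT 4 and *Cebpb* ΔM 4, and it ranged from −0.48 to 1.06 without 1 library. *Trem2* turned to −0.19 with pan-macrophage scaling in both tests and to −0.22 with *Csf1r* scaling. *Vsig4* ranged from −0.54 to 0.40 without 1 library and was at −0.71 with pan-macrophage scaling. The cause of these changes was not tested.

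In MECs the count of 8 genes became 179 with the likelihood ratio test, 161 with DESeq2, 67 with no filter on low counts, 4 with filterByExpr, 206 with the replicate block, and 5 to 339 without 1 library (42 without *Cebpb* ΔM 1, 339 without *Cebpb* ΔM 3, 98 without WT 1, 5 without WT 3), with none of the 10 genes in any of them. *Folr2* ranged from −0.62 to 0.021 and *Cd163* from −0.60 to 0.11 without 1 library. For the interaction the count of 0 became 53 with the likelihood ratio test and 27 with DESeq2 (2 of the 10 genes in each, *Fcna* and *Adgre1*, on 0 to 27 MEC counts), 1 with the replicate block, and 0 to 1 without 1 library. Without 1 library the interaction ranged from −1.67 to 2.61 for *Trem2* and from −2.09 to 3.85 for *Cd209f*, both of which rest on 0 to 2 MEC counts, from −1.42 to 0.11 for *Lyve1*, and from −0.54 to 0.40 for *Vsig4*.

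Libraries of the same number share only that number. The correlation of their deviations from group means, for the replicate block, was 0.11 in MECs and 0.13 and −0.09 in macrophages. With 2 libraries in each MEC group, both MEC pairs must give the same value, so it counts once. No replicate block could be fitted for the comparisons between cell types, because they share no numbers. With 2 WT libraries, and *Vsig4* at 71 counts or fewer in any macrophage library, the precision of these values is limited.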
